A study of Homo sapiens with 12 samples.

Results

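The amino acid transporters described here are the genes of solute carrier families SLC1, SLC3, SLC6, SLC7, SLC36, SLC38 and SLC43 together with SLC16A10. They were chosen by a rule on gene symbols that leaves out SLC6A6, SLC6A12 and SLC7A11. That rule was set with earlier results of these data known. These transporters number 39 of the 16389 genes analysed. RNA-seq counts came from HepG2, an established human liver cancer cell line, with 3 libraries for each of 4 groups. LG cells were kept in 5.5 mM glucose and HG cells in 20 mM glucose for 48 h. LGV and HGV cells had the same media and then 1 mM valproic acid (VPA), a histone deacetylase inhibitor, for 12 h. All cells were of passage 9 of the 1 line. Whether the untreated cells were harvested before or after those 12 h is not given in the sources used here, so the time in the medium and the drug cannot be told apart if they differ. Nothing states that the replicates were separate cultures, so p-values measure the spread between these libraries, which may be technical.

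The 12 libraries held between 29798442 and 45572694 counted reads, of which the 39 genes took between 0.443% and 0.775%. A count of 3 reads, used as the floor of detection, stood for 0.0713 to 0.112 CPM (reads scaled to a fixed library size, here with TMM factors), a limit that covers counting error only. All 8 hepatocyte markers examined were present, with summed levels of 51546 to 58286 CPM in LG, 52587 to 60466 CPM in HG, 39789 to 40746 CPM in LGV and 46686 to 61328 CPM in HGV. Markers of other cell types were at most 0.714 CPM for the neuronal gene RBFOX3 and 2.21 to 4.85 CPM for the endothelial genes VWF and CDH5 summed. COL1A1 and PDGFRB of fibroblasts summed to 37.9 to 58.3 CPM in LG and 18.8 to 29.3 CPM in HG, 32.2 to 40.5 CPM in LGV and 26.3 to 32.9 CPM in HGV. Most of this sum was PDGFRB (18.5 to 57.9 CPM), as COL1A1 reached at most 2.64 CPM, and the fibroblast gene DCN had no row. LYZ, the 1 leukocyte marker of 3 with a row, moved with the groups, at 1066.5 to 1422 CPM in LG, 1236.5 to 1387 CPM in HG, 908 to 1062 CPM in LGV and 1433 to 1545 CPM in HGV, and its part in the results was not tested. In such bulk libraries, fewer cells of a type and less RNA per cell cannot be told apart.

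Amino acids cross membranes mainly through carrier proteins, and most cells combine carriers of several kinds. Sodium-coupled carriers such as those of SLC38 and SLC6 build up amino acids inside the cell, exchangers such as SLC1A5 and SLC7A5 trade one amino acid for another, and facilitated carriers such as SLC43A1 let them run down their gradient. The SLC7 light chains reach the plasma membrane only when joined by a disulphide bond to a heavy chain, SLC3A2 (CD98) or SLC3A1. The liver takes up amino acids after meals for protein synthesis, gluconeogenesis and urea formation, and SLC38A3, SLC38A4 and SLC7A2 are prominent in hepatocytes. Several of these genes are known targets of the transcription factor ATF4, which acts when amino acids are short or the endoplasmic reticulum is under stress. It binds a composite C/EBP-ATF element.

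Sequences around transcription start sites are shown for the members that hold this composite element. They are shown because they include SLC3A2, SLC1A4, SLC1A5 and SLC38A1, whose levels were lower in HG than in LG. SLC7A1 also holds the element, and its change between HG and LG did not pass the test used below. The letters searched were TGATGNAA on both strands, in RefSeq windows of GRCh38.p14 that run from 250 bases before to 50 bases after each start. Of the 39 genes, 33 had a window, and 5 of these 33 (15.2%) held the element, against 4.46% of all 27305 gene symbols with a window. By windows, it was 5 of 52 member windows against 3.62% of all 35116. The motif was chosen with values of these data known, and a match describes letters only, not a site that is used. Each stretch was found exactly once in GRCh37, whose coordinates are given, is written 5′ to 3′ along the gene's own strand, and has the element in capitals.
SLC3A2, chr11:62649197-62649220, plus strand: tgcaggactccTTACATCAgctcc
SLC1A4, chr2:65216515-65216544, plus strand: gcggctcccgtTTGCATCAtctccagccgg
SLC1A5, chr19:47288150-47288179, minus strand: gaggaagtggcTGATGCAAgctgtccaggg
SLC38A1, chr12:46660285-46660314, minus strand: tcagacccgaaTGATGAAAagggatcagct
SLC7A1, chr13:30169800-30169829, minus strand: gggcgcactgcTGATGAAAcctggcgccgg
In SLC3A2 the element lies 37 bases downstream of a start, within an exon, and in SLC1A4, SLC38A1 and SLC7A1 it lies at offsets of -7, -4 and 7 bases. That of SLC1A5 lies at -97 bases. The starts are those of RefSeq transcripts, and the stretches of SLC3A2, SLC1A4, SLC1A5 and SLC38A1 lie inside the span that GENCODE gives the gene in GRCh37. The 5 genes did not share a single course across the groups, as the values show.

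The E-box CACGTG, which is bound by factors such as MYC and TFEB and forms part of the element of the glucose-sensing factors ChREBP and MondoA, was searched in the same windows. It was present in 10 of the 33 genes (30.3%) against 8.77% of all symbols, among them SLC7A5, SLC7A7, SLC38A5, SLC38A7, SLC43A1 and SLC1A5. By windows, it was found in 10 of 52 member windows against 7.26% of all 35116. Here too a match describes letters only. The 150 bases before the start of SLC7A5 are shown with the E-box in capitals, at an offset of -130, because SLC7A5 and its heavy chain are compared at length. The 140 bases from 150 to 11 bases before the start of SLC6A9 are shown because this gene had the largest decrease with VPA, and its window held neither motif.
SLC7A5, chr16:87903114-87903263, minus strand: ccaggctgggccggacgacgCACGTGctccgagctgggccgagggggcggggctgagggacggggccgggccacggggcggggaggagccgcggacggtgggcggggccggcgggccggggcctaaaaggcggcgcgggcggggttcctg
SLC6A9, chr1:44497145-44497284, minus strand: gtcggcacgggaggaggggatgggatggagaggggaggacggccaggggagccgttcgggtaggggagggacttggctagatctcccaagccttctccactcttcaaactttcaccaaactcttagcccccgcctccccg

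Most amino acid transporter genes that changed with glucose fell. In HG against LG, 15 of the 36 members tested were lower and 3 higher at a false discovery rate (FDR) of 0.05 or less, which is 50% of them, against 24.7% of all genes tested (12.7% lower and 12.0% higher). Their median log2 fold change was -0.36, against 0.01 over all genes, and the estimate was below 0 for 29 of the 36. Under VPA, in HGV against LGV, 14 of 39 were lower and 4 higher (46.2% against 40.7% of all genes, 19.5% lower and 21.2% higher), with a median of -0.23 against 0.01. Changes are given throughout as the log2 fold change of the first-named group over the second, ± its standard error, from edgeR. Where an estimate that was not called is said below to pass without a library, the other fits that left out 1 library did not pass. Passes of such estimates under other alternatives are named for some members only. SLC3A1, SLC6A13 and SLC7A8 had too few reads to be tested between HG and LG. The count in HG against LG depended on single libraries, as it was 10 without LG replicate 1 and 11 without HG replicate 3. The share of all genes called fell as well, to 12.5% and 13.5%. Of the 18 calls, 7 held under each alternative tried, those of SLC3A2, SLC1A4, SLC7A6, SLC38A7, SLC6A2, SLC38A4 and SLC7A3.

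VPA moved the members in both directions. In HGV against HG, 10 of 38 tested were higher and 11 lower (55.3%, against 46.1% of all genes, 25.8% higher and 20.2% lower), with a median log2 fold change of -0.11 against 0.02. In LGV against LG, 6 of 38 were higher and 14 lower (52.6%, against 41.6% of all genes, 21.7% higher and 19.9% lower), with a median of -0.27 against -0.01. SLC6A13 was not tested in the first comparison and SLC7A8 not in the second. The hepatocyte markers were also lower in LGV than in LG, as given above, and their part in these differences was not tested.

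**Figure D1:**
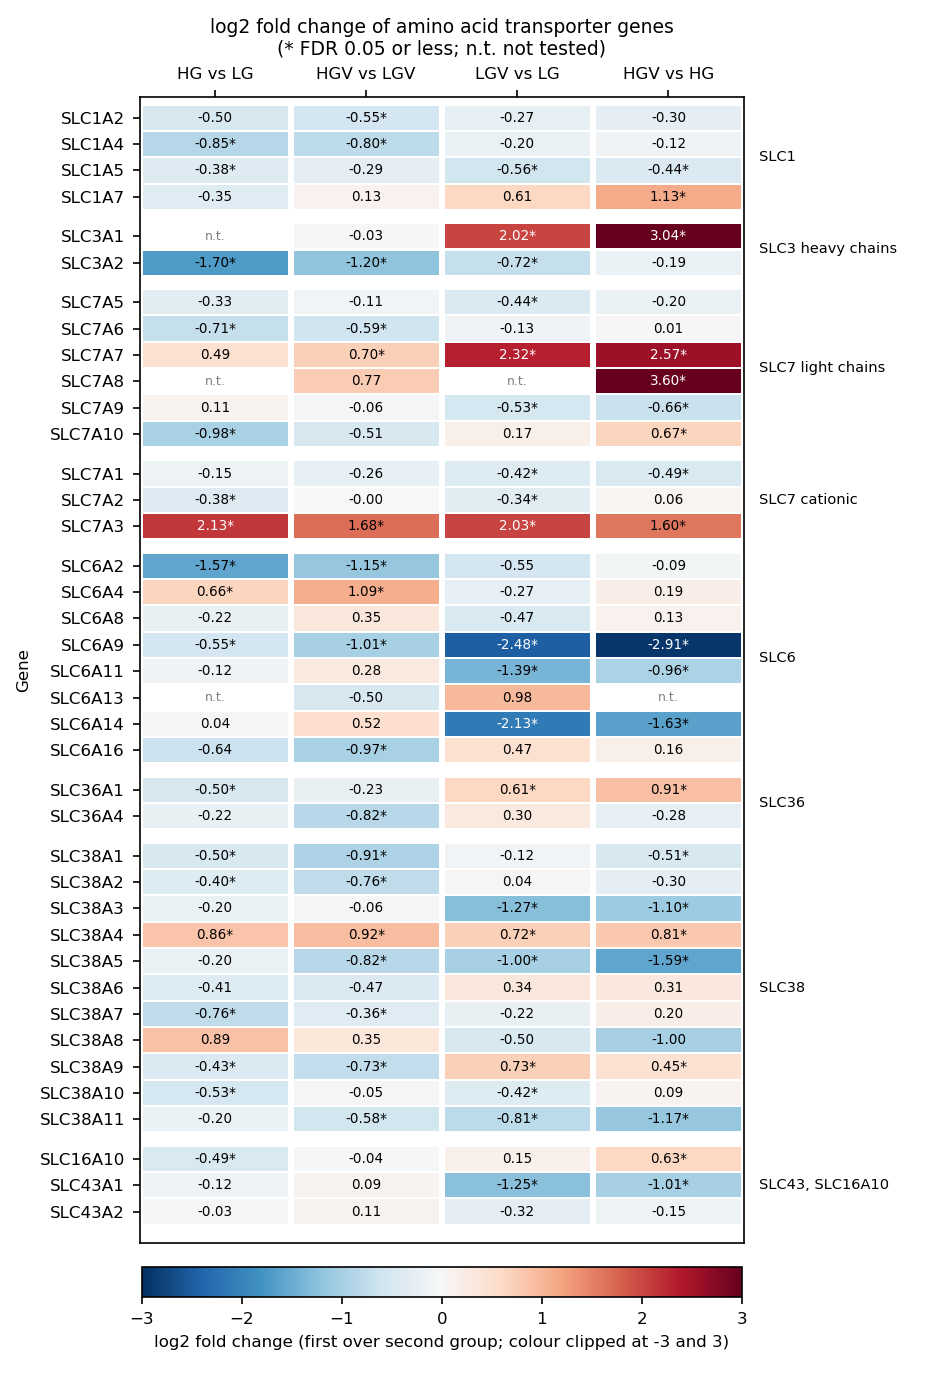
Log2 fold changes of the 39 genes (rows, grouped by family) in the 4 comparisons (columns), with blue for lower and red for higher in the first-named group and an asterisk for an FDR of 0.05 or less. SLC3A2 and SLC6A2 have the darkest blue cells in both glucose columns, and SLC6A9 in both VPA columns. SLC38A4, SLC7A3 and SLC7A7 are red in all 4, though SLC7A7 has no asterisk in HG against LG.

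The heavy chain SLC3A2 (ENSG00000168003, chr11:62623476-62656352 of GRCh37, plus strand), which carries SLC7A5 and related light chains to the cell surface, had the largest decrease in high glucose among the members. It stood at 1415, 1393 and 936 CPM in LG, 336, 388 and 406 CPM in HG, 671, 793 and 792 CPM in LGV, and 329.8, 375 and 287 CPM in HGV. All HG and HGV libraries lay below all LG and LGV libraries. The log2 fold change was -1.70 ± 0.15 (FDR 4.54e-07) in HG against LG, a 3.26-fold decrease, and -1.20 ± 0.14 (FDR 5.63e-06) in HGV against LGV. VPA lowered it in low glucose with a log2 fold change of -0.72 ± 0.16 (FDR 0.00218), while the estimate in high glucose was -0.19 ± 0.12 (FDR 0.227). The last of these passed the threshold when HGV replicate 2 was left out (log2 -0.29, FDR 0.0474). The difference between the 2 VPA responses, tested as an interaction, was 0.54 ± 0.21 (FDR 0.319).

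SLC7A5 (LAT1, chr16:87863629-87903113 of GRCh37, minus strand), the exchanger of leucine and other large neutral amino acids, had smaller estimated changes than its heavy chain in both glucose comparisons. It had 1093, 1019 and 920.4 CPM in LG, 723, 841 and 806 CPM in HG, 678, 801 and 732 CPM in LGV, and 732, 696 and 640.0 CPM in HGV. LG was the highest group and did not overlap HG or LGV. The log2 fold change was -0.33 ± 0.12 (FDR 0.0553) in HG against LG, and it passed without LG replicate 3 (log2 -0.39, FDR 0.0131), with genes kept at 1 CPM in 3 libraries, in the likelihood ratio test and in DESeq2. It fell in LGV against LG, -0.44 ± 0.13 (FDR 0.0118), but not without LG replicate 1 (log2 -0.39, FDR 0.0598) or without LGV replicate 3 (log2 -0.42, FDR 0.0600). Neither HGV against HG, log2 -0.20 (FDR 0.159), nor HGV against LGV, log2 -0.11 (FDR 0.520), passed.

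Per kilobase of exon, SLC3A2 and SLC7A5 had a higher ratio in LG than in HG. The ratio of their levels was 0.965, 1.02 and 0.758 in LG, 0.347, 0.344 and 0.375 in HG, 0.738, 0.738 and 0.806 in LGV, and 0.336, 0.401 and 0.334 in HGV. Its mean was 0.914 ± 0.138 (SD, n = 3) in LG and 0.355 ± 0.0175 in HG, and 0.761 ± 0.0395 in LGV against 0.357 ± 0.0385 in HGV. The low and high glucose groups did not overlap with or without VPA, although an exact permutation test of 3 libraries against 3 cannot go below p = 0.1. Against the summed level of its partners SLC7A5, SLC7A6, SLC7A7, SLC7A8 and SLC7A10, the ratio was 0.878 ± 0.131 in LG, 0.344 ± 0.0171 in HG, 0.719 ± 0.0364 in LGV and 0.340 ± 0.0366 in HGV. SLC7A11, also a partner, is not among these members. The lengths used, 6392 bases for SLC3A2 and 4764 bases for SLC7A5, join the exons of all annotated transcripts. The size of these ratios depends on such lengths. The change of the SLC3A2 to SLC7A5 ratio between groups does not.

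**Figure D2:**
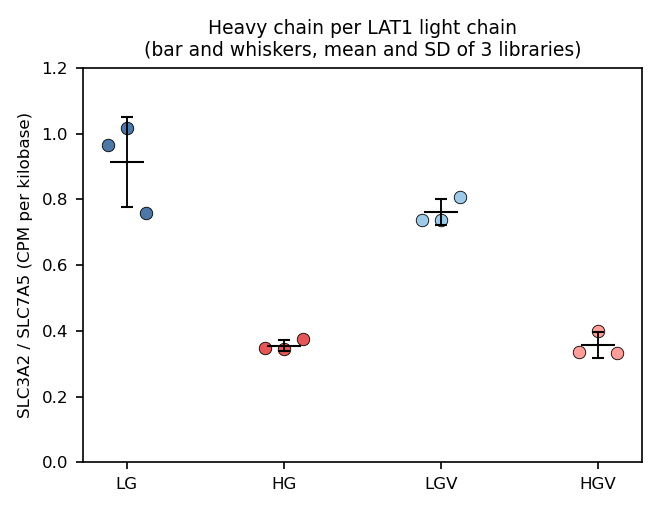
Ratio of the SLC3A2 level to the SLC7A5 level (both in CPM per kilobase of exon, vertical axis) in each library of the 4 groups, with mean and SD bars. The 6 high glucose libraries lie between 0.334 and 0.401 and the 6 low glucose libraries between 0.738 and 1.02.

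The other light chains went separate ways. SLC7A6, an exchanger of cationic against neutral amino acids, had 53.7, 62.4 and 50.01 CPM in LG, 34.2, 33.2 and 32.9 CPM in HG, 46.9, 51.8 and 51.8 CPM in LGV, and 37.5, 31.6 and 32.1 CPM in HGV. It fell with high glucose in both settings with a log2 fold change of -0.71 ± 0.13 (FDR 9.20e-04) in HG against LG and -0.59 ± 0.12 (FDR 8.99e-04) in HGV against LGV, while its estimates with VPA were 0.01 and -0.13 on the log2 scale, with no call. Of its exon bases, 44.4% overlap SLC7A6OS on the other strand, and the strand setting of the counting is not stated, so reads of the 2 genes may not be separated.

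SLC7A7 (chr14:23242431-23299029 of GRCh37, minus strand), which exports lysine and arginine in exchange for neutral amino acids, had the largest increase with VPA among members above 1 log2 CPM. Its level was 1.05, 1.32 and 1.30 CPM in LG, 1.84, 1.70 and 1.57 CPM in HG, 7.02, 5.26 and 6.11 CPM in LGV, and 8.98, 12.5 and 8.85 CPM in HGV. Every VPA library exceeded every untreated one. It rose 5.94-fold in HGV against HG, 2.57 ± 0.19 (FDR 4.84e-07) on the log2 scale, and 5.001-fold in LGV against LG, 2.32 ± 0.23 (FDR 1.97e-06). High glucose raised it under VPA, 0.70 ± 0.18 (FDR 0.00493), and the estimate without VPA was 0.49 ± 0.26 (FDR 0.175).

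SLC7A8 (LAT2), a further exchanger of neutral amino acids, and SLC3A1, the heavy chain of the cystine carrier, were near the floor without VPA. SLC7A8 had 3 reads in the 3 LG libraries together and 52 in LGV, a CPM ratio of 18.1 (95% exact interval 5.85 to 90.5, counting error only), and 7 reads in HG against 97 in HGV, a ratio of 12.8 (6.0001 to 32.8). Its log2 fold change in HGV against HG was 3.604 ± 0.42 (FDR 2.15e-05). SLC3A1 had 10 reads in HG and 92 in HGV, a ratio of 8.52 (4.43 to 18.4), and 22 in LG and 86 in LGV, a ratio of 4.08 (2.53 to 6.84). Both comparisons passed the test for SLC3A1, with log2 3.04 (FDR 1.70e-04) and log2 2.02 (FDR 0.00120), and the first rose to log2 3.75 without HG replicate 2. Its exons overlap PREPL on the other strand over 29.4% of their bases and an unnamed protein-coding gene on the same strand over 26.9%.

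The light chain that joins SLC3A1, SLC7A9, went the other way with VPA. Its libraries ranged from 5.07 to 6.23 CPM in LG and 5.83 to 6.10 CPM in HG, and from 3.42 to 4.32 CPM in LGV and 2.88 to 4.82 CPM in HGV. It fell in HGV against HG, log2 -0.66 (FDR 0.0132), and in LGV against LG, log2 -0.53 (FDR 0.0445). The first did not pass without HGV replicate 1 (log2 -0.50, FDR 0.0588). The second was lost when any of 5 of its 6 libraries was left out, with FDR up to 0.143. It was also lost with upper-quartile or library-size scaling (FDR up to 0.171) and with replicate number as a block (FDR 0.0514).

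SLC7A10 (Asc-1), a carrier of small neutral amino acids and D-serine, had 3.14, 3.92 and 2.73 CPM in LG, 1.205, 1.67 and 1.99 CPM in HG, 3.45, 3.86 and 3.66 CPM in LGV, and 2.54, 2.33 and 2.91 CPM in HGV. HG lay below the other 3 groups. It fell with a log2 fold change of -0.98 ± 0.25 (FDR 0.00919) in HG against LG and rose with a log2 fold change of 0.67 ± 0.23 (FDR 0.0288) in HGV against HG. In HGV against LGV the estimate was log2 -0.51 (FDR 0.0533), and it passed without LGV replicate 1 (log2 -0.55, FDR 0.0429), in the likelihood ratio test and in DESeq2. The decrease in HG was lost without HG replicate 1 (log2 -0.80, FDR 0.0564), and the increase in HGV when any of 4 of its 6 libraries was left out, most of all HG replicate 1 (log2 0.48, FDR 0.114). The exons of SLC7A10 share 6.46% of their bases with LRP3 on the other strand.

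The cationic branch of SLC7 takes up arginine and lysine without a heavy chain. SLC7A1 (CAT1), the widespread member, had 438, 405 and 383 CPM in LG, 341, 389 and 354 CPM in HG, 285, 316 and 309.5 CPM in LGV, and 300.1, 245 and 226 CPM in HGV. It fell with VPA in both media with a log2 fold change of -0.49 ± 0.12 (FDR 0.00521) in HGV against HG and -0.42 ± 0.12 (FDR 0.0103) in LGV against LG. With glucose the estimates were log2 -0.15 (FDR 0.368) without VPA and log2 -0.26 (FDR 0.130) under VPA, and the latter passed without HGV replicate 1 (log2 -0.38, FDR 0.0491).

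SLC7A2 (CAT2), the hepatocyte form, lay between 342 and 424 CPM in LG, 274 and 325 CPM in HG, 284 and 343 CPM in LGV, and 238 and 349 CPM in HGV. It fell in HG, log2 -0.38 (FDR 0.0319), and in LGV, log2 -0.34 (FDR 0.0499), each against LG. The first call was lost without LG replicate 1, HG replicate 2 or HG replicate 3, with FDR up to 0.210, and the second without LG replicate 1 or 3 or LGV replicate 2 or 3, with FDR up to 0.216. Both were also lost with upper-quartile scaling, with library-size scaling (FDR 0.101 and 0.327) and in 1 fit of all libraries. The first was lost with replicate number as a block (FDR 0.0689), and the second with genes kept at 1 CPM in 3 libraries. SLC7A3 (CAT3) rose in all 4 comparisons, from 1.60 to 2.13 on the log2 scale, at a low level. It had 16 reads in LG, 66 in HG and 62 in LGV, the ratio to LG being 4.34 (95% exact interval 2.49 to 8.03) for HG and 4.04 (2.30 to 7.50) for LGV, and 1.59 to 2.45 CPM in the HGV libraries.

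**Figure D3:**
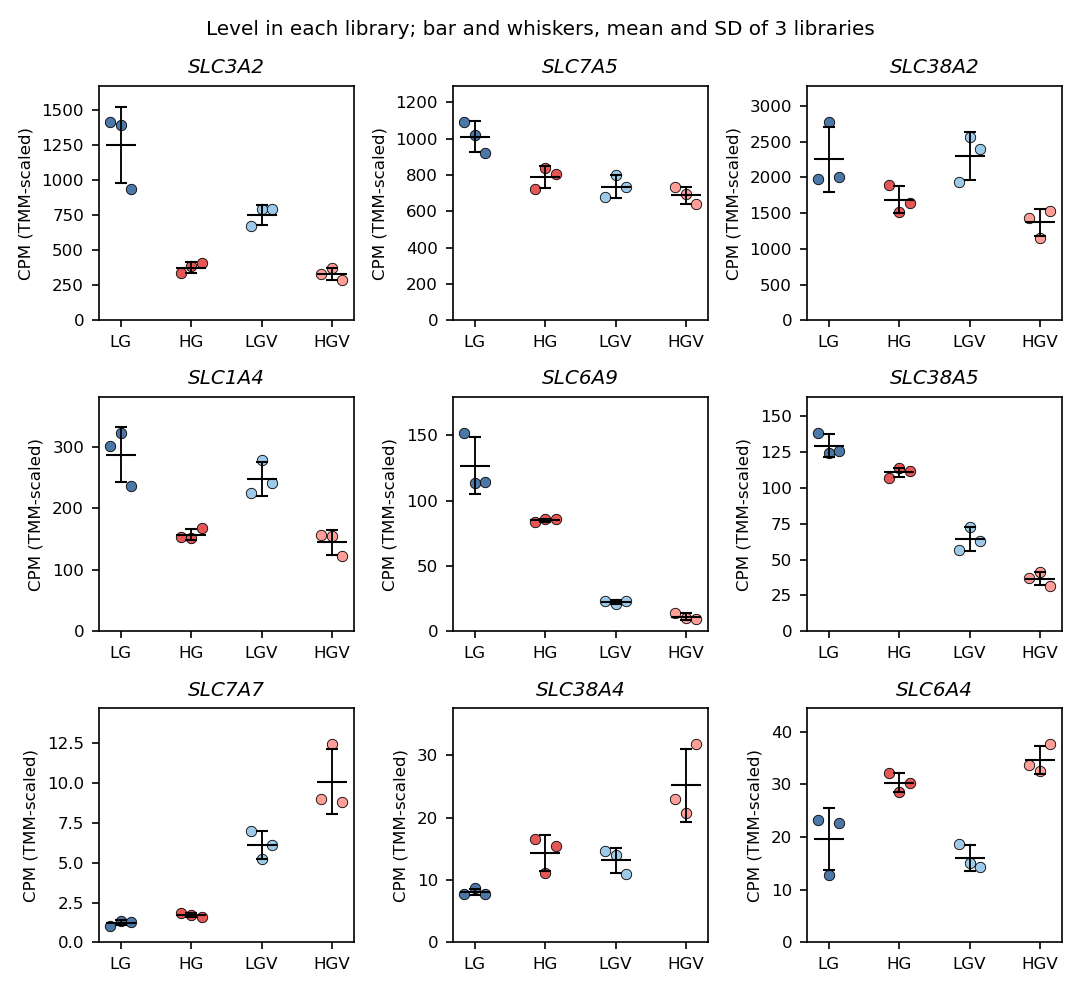
Levels of 9 members in CPM (vertical axis of each panel, starting at 0) in each library of LG, HG, LGV and HGV (horizontal axis), with mean and SD bars. SLC3A2 and SLC1A4 separate by glucose, SLC6A9 and SLC7A7 by VPA with a further step by glucose under VPA, and SLC38A4 is lowest in LG and highest in HGV.

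Of the SLC1 family, SLC1A4 (ASCT1, chr2:65215611-65250999 of GRCh37, plus strand), an exchanger of serine, alanine and cysteine, had 302, 322 and 236 CPM in LG, 153, 151 and 167 CPM in HG, 224, 279 and 240.2 CPM in LGV, and 156, 156 and 122 CPM in HGV. The 6 high glucose libraries were all below the 6 low glucose libraries, with or without VPA. The log2 fold change was -0.85 ± 0.13 (FDR 1.62e-04) in HG against LG and -0.80 ± 0.14 (FDR 1.85e-04) in HGV against LGV, while HGV against HG gave log2 -0.12 (FDR 0.417) and LGV against LG log2 -0.20 (FDR 0.274).

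SLC1A5 (ASCT2), the exchanger that brings in glutamine, had 799, 707 and 688 CPM in LG, 510.1, 578 and 568 CPM in HG, 459, 500.4 and 514 CPM in LGV, and 438, 410.0 and 376 CPM in HGV. LG was highest and HGV lowest, with no overlap between any pair of groups except HG and LGV. With VPA it fell with a log2 fold change of -0.44 ± 0.11 (FDR 0.00474) in HGV against HG and -0.56 ± 0.12 (FDR 0.00186) in LGV against LG. In HG against LG it fell with a log2 fold change of -0.38 ± 0.12 (FDR 0.0272). This call was lost without any of 4 libraries (FDR up to 0.136, without LG replicate 1) and with upper-quartile or library-size scaling. It was also lost with replicate number as a block (FDR 0.0600). In HGV against LGV the estimate was log2 -0.29 (FDR 0.0805), which passed without LGV replicate 1 (log2 -0.33, FDR 0.0485). It also passed in DESeq2 (FDR 0.0302) and with replicate number as a block (FDR 0.0401). A noncoding gene on the other strand covers 23.4% of its exon bases.

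SLC1A7 (EAAT5), a glutamate carrier best known from the retina, had 2.32, 2.15 and 2.12 CPM in LG, 1.39, 2.00 and 1.65 CPM in HG, 4.41, 3.09 and 2.48 CPM in LGV, and 3.43, 3.83 and 3.79 CPM in HGV. It was raised by VPA in high glucose, 1.13 ± 0.20 (FDR 5.01e-04), and the estimate in low glucose was 0.61 ± 0.25 (FDR 0.0648), past the threshold without LGV replicate 3 (log2 0.80, FDR 0.0433). SLC1A2 (EAAT2), the main glutamate carrier of the brain and also present in liver, lay between 138 and 268 CPM in LG and 81.2 and 144 CPM in HGV. It passed in HGV against LGV, log2 -0.55 (FDR 0.0175), but not without HGV replicate 2 (log2 -0.35, FDR 0.0674) or LGV replicate 2 (log2 -0.40, FDR 0.0909), nor with library-size scaling or 1 fit of all libraries. Its estimate in HG against LG, log2 -0.50 (FDR 0.0644), passed without LG replicate 3 (log2 -0.71, FDR 0.00229) or HG replicate 1 (log2 -0.73, FDR 0.0367), but was log2 -0.21 (FDR 0.466) without LG replicate 2. That in LGV against LG, log2 -0.27 (FDR 0.287), also passed without LG replicate 3 (log2 -0.47, FDR 0.0182) and was log2 -0.02 (FDR 0.930) without LG replicate 2.

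The SLC38 family, sodium-coupled carriers of glutamine, alanine and other neutral amino acids, had 11 members. In HG against LG, 5 fell and 1 rose (54.5% called, against 24.7% of all genes), and in HGV against LGV 6 fell and 1 rose (63.6% against 40.7%). With VPA 4 fell and 2 rose in each medium (54.5%, against 46.1% of all genes in high and 41.6% in low glucose). SLC38A2 (SNAT2, chr12:46751971-46766556 of GRCh37, minus strand), the carrier that cells raise when amino acids are scarce, had the highest level per kilobase of all members in LG, 346 ± 69.9 CPM per kilobase (SD, n = 3), which was 24.5% of the members' sum. Its libraries held 1978, 2778 and 2003 CPM in LG, 1892, 1520.4 and 1641 CPM in HG, 1931, 2569.6 and 2396 CPM in LGV, and 1427, 1159 and 1527 CPM in HGV. HGV lay below LGV without overlap, -0.76 ± 0.16 (FDR 0.00101). HG lay below LG with a log2 fold change of -0.40 ± 0.14 (FDR 0.0455). This call was lost in 5 of the 6 fits without 1 library (up to log2 -0.19, FDR 0.324 without LG replicate 2, the highest LG library). It was also lost with upper-quartile or library-size scaling, without the filter and in 1 fit of all libraries. With replicate number as a block it was lost too (FDR 0.0595). VPA gave log2 -0.30 (FDR 0.0871) in high and log2 0.04 (FDR 0.865) in low glucose. The first passed in DESeq2 (log2 -0.33, FDR 0.0288).

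SLC38A1 (SNAT1), its close relative, had 317, 410.4 and 299 CPM in LG, 267, 222 and 229 CPM in HG, 283, 333 and 324 CPM in LGV, and 189, 142 and 173 CPM in HGV. It fell in HGV against LGV with a log2 fold change of -0.91 ± 0.13 (FDR 5.30e-05), in HGV against HG with -0.51 ± 0.12 (FDR 0.00509) and in HG against LG with -0.50 ± 0.13 (FDR 0.0115). The last call was lost without LG replicate 2 (log2 -0.32, FDR 0.0875) or HG replicate 3 (log2 -0.43, FDR 0.0901). In LGV against LG the estimate was log2 -0.12 (FDR 0.541), so SLC38A1 and SLC38A2 had no called change with VPA in low glucose.

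SLC38A3 and SLC38A5, system N carriers that exchange glutamine and sodium for protons, fell with VPA. SLC38A3 (SNAT3) had 226, 147 and 168 CPM in LG, 153, 152 and 159 CPM in HG, 78.2, 73.4 and 71.5 CPM in LGV, and 64.2, 72.5 and 80.2 CPM in HGV. Treated and untreated libraries did not overlap in either medium, with a log2 fold change of -1.10 ± 0.11 (FDR 4.43e-06) in HGV against HG and -1.27 ± 0.15 (FDR 9.46e-06) in LGV against LG. Glucose gave log2 -0.20 (FDR 0.309) and log2 -0.06 (FDR 0.724), with no call.

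SLC38A5 (SNAT5, chrX:48316920-48328648 of GRCh37, minus strand) had 138, 124 and 126 CPM in LG, 107, 113 and 111 CPM in HG, 56.7, 72.8 and 63.2 CPM in LGV, and 37.3, 41.2 and 31.8 CPM in HGV. The 4 groups descended from LG through HG and LGV to HGV without overlap. VPA lowered it with a log2 fold change of -0.996 ± 0.12 (FDR 1.63e-05) in low and -1.59 ± 0.11 (FDR 3.76e-07) in high glucose, and high glucose lowered it under VPA with a log2 fold change of -0.82 ± 0.13 (FDR 1.19e-04), with log2 -0.20 (FDR 0.217) in the untreated cells. The interaction of glucose and VPA, -0.58 ± 0.17 (FDR 0.171), had the smallest p of all members, 0.00274 before adjustment, and did not pass.

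SLC38A4 (SNAT4), an amino acid carrier of the liver, was the 1 member of the family called higher in high glucose, and it rose in all 4 comparisons. Its libraries held 7.74, 8.66 and 7.76 CPM in LG, 16.7, 11.1 and 15.4 CPM in HG, 14.6, 14 and 10.9 CPM in LGV, and 23.0, 20.8 and 31.9 CPM in HGV. It rose with a log2 fold change of 0.86 ± 0.18 (FDR 0.00198) in HG against LG, 0.92 ± 0.17 (FDR 3.22e-04) in HGV against LGV, 0.81 ± 0.18 (FDR 0.00324) in HGV against HG and 0.72 ± 0.17 (FDR 0.00331) in LGV against LG, calls that held under each alternative tried. From LG to HGV its mean went from 8.05 ± 0.524 to 25.2 ± 5.87 CPM (SD, n = 3), while that of SLC38A3 went from 181 ± 40.9 to 72.3 ± 8.01 CPM.

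Among lysosomal and less studied SLC38 members, SLC38A7 (SNAT7), a lysosomal glutamine exporter, had 55.7, 41.8 and 43.5 CPM in LG, 25.5, 29.3 and 27.2 CPM in HG, 42.3, 37.6 and 40.0 CPM in LGV, and 33.1, 29.9 and 31.4 CPM in HGV. It fell with a log2 fold change of -0.76 ± 0.14 (FDR 0.00108) in HG against LG and -0.36 ± 0.12 (FDR 0.0206) in HGV against LGV, the second not passing without HGV replicate 3 (log2 -0.36, FDR 0.0561) or LGV replicate 3 (log2 -0.36, FDR 0.0762), nor with upper-quartile or library-size scaling. SLC38A9, the lysosomal arginine sensor upstream of mTORC1, moved in opposite directions with glucose and VPA. It lay between 21.2 and 27.5 CPM in HG and between 51.3 and 56.2 CPM in LGV, the lowest and highest groups, with log2 -0.43 (FDR 0.0340) in HG against LG, log2 -0.73 (FDR 1.03e-04) in HGV against LGV, log2 0.45 (FDR 0.00898) in HGV against HG and log2 0.73 (FDR 1.73e-04) in LGV against LG. The first of the 4 calls was lost without any of 4 libraries, with FDR up to 0.171, and with upper-quartile (FDR 0.0895) or library-size scaling (FDR 0.104). It was also lost with replicate number as a block (FDR 0.0737).

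SLC38A10 had 178, 148 and 135 CPM in LG, 92.6, 113 and 108 CPM in HG, 110.0, 114 and 118 CPM in LGV, and 111, 104 and 118 CPM in HGV. LG was above the other 3 groups, which overlapped, with a log2 fold change of -0.53 ± 0.13 (FDR 0.00748) in HG against LG and -0.42 ± 0.12 (FDR 0.0142) in LGV against LG. Without LG replicate 1 neither passed (log2 -0.40, FDR 0.0680, and log2 -0.31, FDR 0.0714), and the second was also lost without LGV replicate 3 (log2 -0.42, FDR 0.0514) and with library-size scaling. Its interaction was 0.52 ± 0.17 (FDR 0.222). SLC38A11 had 8.90, 10.95 and 9.60 CPM in LG, 11.5, 5.44 and 8.48 CPM in HG, 6.15, 5.55 and 4.94 CPM in LGV, and 3.68, 2.85 and 4.79 CPM in HGV, and fell with VPA with a log2 fold change of -1.17 ± 0.26 (FDR 0.00283) in high and -0.81 ± 0.18 (FDR 0.00199) in low glucose. Its decrease in HGV against LGV, log2 -0.58 (FDR 0.0348), was lost without any of 4 libraries (FDR up to 0.124), with upper-quartile (FDR 0.0784) or library-size scaling (FDR 0.115) and in 1 fit of all libraries (FDR 0.0662). SLC38A6 and SLC38A8, at means of 4.29 and 0.610 CPM over all libraries, had no call. SLC38A8 passed in HG against LG without LG replicate 3 (log2 1.33, FDR 0.00774), with upper-quartile scaling and in the likelihood ratio test. In HGV against HG it passed without HGV replicate 2 (log2 -1.25, FDR 0.0259) or 1 (log2 -1.25, FDR 0.0480). There it also passed with size factors of DESeq2, in the likelihood ratio test and in DESeq2. A replicate block and 1 fit of all libraries gave the same.

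In the SLC6 family, sodium- and chloride-coupled carriers of amino acids, monoamines and creatine, 3 members fell and 0 rose with VPA in each medium. These were 42.9% of those tested in high glucose, against 46.1% of all genes, and 37.5% in low glucose, against 41.6%, so the called share did not exceed that of all genes. SLC6A9 (GlyT1, chr1:44457172-44497139 of GRCh37, minus strand), the high-affinity glycine carrier, had the largest decrease with VPA of all members. Its libraries held 152, 114 and 114 CPM in LG, 83.3, 85.7 and 85.7 CPM in HG, 23.6, 20.9 and 22.9 CPM in LGV, and 14.3, 10.2 and 9.50 CPM in HGV. The groups descended from LG through HG and LGV to HGV, none overlapping. VPA lowered it 7.50-fold in high glucose, -2.91 ± 0.15 (FDR 3.50e-08) on the log2 scale, and 5.57-fold in low glucose, -2.48 ± 0.14 (FDR 1.83e-08). High glucose lowered it with a log2 fold change of -1.01 ± 0.16 (FDR 8.70e-05) under VPA and -0.55 ± 0.13 (FDR 0.00504) without, and the latter did not pass without LG replicate 1 (log2 -0.38, FDR 0.0561). Its exons share 7.87% of their bases with CCDC24 on the other strand.

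SLC6A14, a carrier of both neutral and cationic amino acids that is driven by sodium and chloride, had 29.5, 44.8 and 71.4 CPM in LG, 56.3, 41.2 and 50.9 CPM in HG, 9.24, 8.54 and 15.4 CPM in LGV, and 26.0, 11.03 and 11.2 CPM in HGV. LG and HG overlapped, with log2 0.04 (FDR 0.909), and both lay above their VPA counterparts. The log2 fold change was -1.63 ± 0.28 (FDR 4.06e-04) in HGV against HG and -2.13 ± 0.28 (FDR 3.00e-05) in LGV against LG. HGV replicate 1 stood above the other HGV libraries. The comparison of HGV with LGV, log2 0.52 (FDR 0.139), passed without LGV replicate 3 (log2 0.83, FDR 0.0272), HGV replicate 2 (log2 0.73, FDR 0.0443) or HGV replicate 3 (log2 0.72, FDR 0.0360). Without HGV replicate 1 no difference remained in the estimate (log2 -0.01, FDR 0.976).

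SLC6A11 (GAT3), a carrier of the inhibitory transmitter GABA, had 62.0, 54.4 and 63.7 CPM in LG, 55.5, 52.2 and 55.8 CPM in HG, 23.7, 21.8 and 22.8 CPM in LGV, and 29.7, 27.7 and 26.7 CPM in HGV. It fell with VPA with a log2 fold change of -0.96 ± 0.10 (FDR 1.03e-05) in high and -1.39 ± 0.12 (FDR 6.41e-07) in low glucose, and the glucose comparisons gave log2 -0.12 (FDR 0.515) and log2 0.28 (FDR 0.0707). SLC6A4, the serotonin transporter, was higher in high glucose, unlike most members. It had 23.3, 12.8 and 22.6 CPM in LG, 32.1, 28.6 and 30.3 CPM in HG, 18.7, 15 and 14.3 CPM in LGV, and 33.6, 32.6 and 37.7 CPM in HGV, and rose with a log2 fold change of 0.66 ± 0.18 (FDR 0.0139) in HG against LG and 1.09 ± 0.14 (FDR 1.11e-05) in HGV against LGV. The first was lost without HG replicate 1 (log2 0.63, FDR 0.0640), and its estimate in LGV against LG, log2 -0.27 (FDR 0.317), passed without LG replicate 2 (log2 -0.51, FDR 0.0129), the lowest LG library.

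SLC6A2, the noradrenaline transporter, fell in high glucose, with 2.76 to 3.24 CPM in LG, 0.856 to 1.15 CPM in HG, 1.71 to 2.51 CPM in LGV and 0.736 to 1.09 CPM in HGV. Its log2 fold change was -1.57 ± 0.25 (FDR 2.40e-04) in HG against LG and -1.15 ± 0.28 (FDR 0.00341) in HGV against LGV, although 28.6% of its exon bases are shared with an unnamed locus on the same strand. SLC6A16, an orphan carrier, fell in HGV against LGV, log2 -0.97 (FDR 0.0102), and passed in HG against LG only without LG replicate 3 (log2 -0.86, FDR 0.0387). The creatine transporter SLC6A8 had no call, with estimates from -0.47 to 0.35 on the log2 scale. It passed in LGV against LG without LG replicate 2 (log2 -0.67, FDR 0.00342) and in HGV against LGV without HGV replicate 1 (log2 0.51, FDR 0.0169). The first also passed in the likelihood ratio test, in DESeq2 and with replicate number as a block. The second also passed with upper-quartile or library-size scaling and with the block. SLC6A13 (GAT2) reached at most 0.510 CPM in any library and had no call where tested.

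The proton-coupled carriers and the efflux carriers were few. SLC36A1 (PAT1), which exports small neutral amino acids from lysosomes, rose with VPA, log2 0.91 (FDR 2.61e-05) in high and log2 0.61 (FDR 0.00106) in low glucose, from 18.0 to 19.7 CPM in HG to 32.9 to 37.2 CPM in HGV. It fell in HG against LG, log2 -0.50 (FDR 0.0174), a call lost without any of 3 libraries (FDR up to 0.123) and with library-size scaling. SLC36A4 (PAT4) fell in HGV against LGV, log2 -0.82 (FDR 1.68e-04). Without LG replicate 2 it also passed in LGV against LG (log2 0.58, FDR 0.00577).

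SLC43A1 (LAT3), a facilitated carrier of leucine and other large neutral amino acids found in liver, had 225, 153 and 196 CPM in LG, 167, 169.9 and 181 CPM in HG, 89.0, 75.3 and 74.9 CPM in LGV, and 81.2, 89.9 and 86.8 CPM in HGV. VPA lowered it in both media, with a log2 fold change of -1.01 ± 0.10 (FDR 4.02e-06) in high and -1.25 ± 0.15 (FDR 9.73e-06) in low glucose, with no overlap of treated and untreated libraries. Glucose gave log2 -0.12 (FDR 0.530) and log2 0.09 (FDR 0.576). Its relative SLC43A2 (LAT4) had no call and passed in LGV against LG without LG replicate 2 alone (log2 -0.47, FDR 0.0122). SLC16A10 (TAT1), a carrier of aromatic amino acids, fell in HG against LG, log2 -0.49 (FDR 0.0239), and rose in HGV against HG, log2 0.63 (FDR 0.00258). The decrease was lost without any of 4 libraries (FDR up to 0.144) and with upper-quartile (FDR 0.0636) or library-size scaling (FDR 0.0777). It was also lost with replicate number as a block (FDR 0.0513).

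The effect of glucose was measured in 2 comparisons that share no library. Of 36 members tested in both, 3 were higher in both, 9 lower in both and 0 opposite (33.3% called the same way, against 18.7% of all genes tested in both). Those lower in both were SLC3A2, SLC7A6, SLC1A4, SLC38A1, SLC38A2, SLC38A7, SLC38A9, SLC6A2 and SLC6A9, and those higher SLC38A4, SLC6A4 and SLC7A3. A further 6 were called without VPA alone and 6 under VPA alone. Of all 15271 genes tested in both, 916 were called without VPA alone and 3370 under VPA alone. Across the 36 genes, which are not independent replicates, the 2 log2 fold changes had a Pearson r of 0.845, against 0.779 over all genes. The effect of VPA was likewise measured in 2 comparisons without a shared library. Of 37 members tested in both, 6 were higher in both, 10 lower in both and 0 opposite (43.2%, against 32.3% of all genes), with r = 0.932 against 0.914 over all genes. Those higher were SLC7A7, SLC3A1, SLC7A3, SLC38A4, SLC38A9 and SLC36A1, and those lower SLC6A9, SLC6A14, SLC6A11, SLC38A3, SLC38A5, SLC38A11, SLC43A1, SLC7A1, SLC7A9 and SLC1A5.

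**Figure D4:**
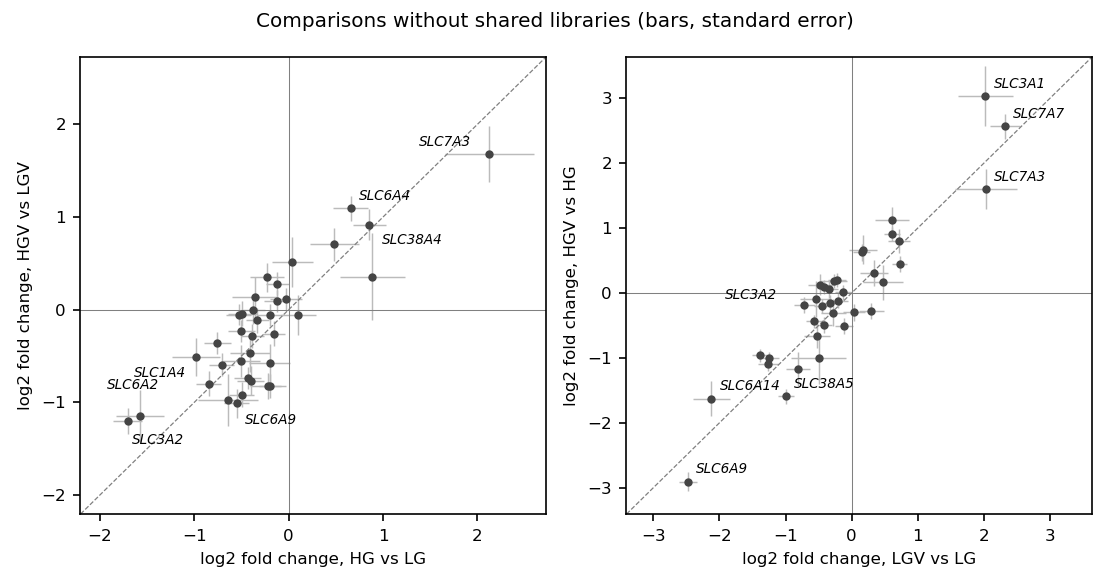
Log2 fold changes of the members in pairs of comparisons without shared libraries, for glucose (left, 36 genes) and VPA (right, 37 genes), with standard error bars and the line of equal change. SLC3A2 and SLC6A2 lie lowest for glucose at both levels of VPA, and of the genes plotted SLC6A9 lies lowest and SLC3A1 highest for VPA in high glucose.

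Whether the response to VPA differed between the media was tested as an interaction over the 12 libraries. No member passed in edgeR's quasi-likelihood test (0 of 39, against 0.0427% of all genes, 0.0244% higher and 0.0183% lower). In that test 8 of the 39 had p under 0.05 before adjustment. The share of all genes under that p was not computed, so this count has no background to be read against. The likelihood ratio test and DESeq2 also called 0, against 1.23% and 0.988% of all genes. Without LG replicate 2, SLC36A4 passed (log2 -0.88, FDR 0.0346), against log2 -0.56 (FDR 0.385) with all libraries. Genes called in 1 medium and not in the other are thus not shown to differ between the media.

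Per kilobase of exon, 4 genes led in LG, an order that depends on the exon lengths used. After SLC38A2 came SLC1A5 with 219.6 ± 17.7, SLC7A5 with 212 ± 18.2 and SLC3A2 with 195 ± 42.3 CPM per kilobase (SD, n = 3), and these 3 overlapped within their spread. SLC43A1 with 54.3, SLC7A1 with 53.1, SLC7A2 with 49.1 and SLC38A3 with 45.5 followed, also within their spread. The summed level of the 39 genes was 8389, 8807 and 7304 CPM in LG, 5781, 5547 and 5649 CPM in HG, 5806, 6876 and 6527 CPM in LGV, and 4763, 4240.2 and 4639 CPM in HGV. HG lay below LG, and HGV below both other groups it was compared with. SLC3A2 accounted for 34.7% of the net fall from LG to HG, SLC38A2 for 22.7%, SLC7A5 for 8.82% and SLC1A5 for 7.16%. Without SLC3A2 and SLC38A2 the sums averaged 4666 ± 317 CPM in LG, 3598 ± 42.97 in HG, 3352 ± 155 in LGV and 2846 ± 151 in HGV.

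Genes outside the membership that act with amino acid supply were read from 2 lists. Of 19 carriers of the mitochondria, lysosomes, vesicles and peptides, 0 were higher and 5 lower of 17 tested in HG against LG (29.4% called, against 24.7% of all genes), and 4 higher and 5 lower of 19 in HGV against LGV (47.4% against 40.7%). With VPA 9 rose and 4 fell of 19 in high glucose (68.4% against 46.1%), and 6 rose and 4 fell of 18 in low glucose (55.6% against 41.6%). SLC17A5, the lysosomal sialic acid exporter, was among those lower in high glucose with a log2 fold change of -1.16, as were the cystine exporter CTNS with -0.51 and PQLC2, a lysosomal carrier of cationic amino acids, with -0.80. The vesicular glutamate carrier SLC17A7 rose with VPA in both media, with a log2 fold change of 5.03 in high and 4.17 in low glucose.

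Of 16 genes of the amino acid response, 3 were higher and 6 lower in HG against LG (56.2% called, against 24.7% of all genes) and 5 higher and 6 lower in HGV against LGV (68.8% against 40.7%). With VPA 2 were higher and 7 lower in HGV against HG (56.2% against 46.1%), and 1 higher and 10 lower in LGV against LG (68.8% against 41.6%). ATF4, the factor that drives the response, fell in each, with log2 -0.40 (FDR 0.0353), log2 -0.49 (FDR 0.0125), log2 -0.49 (FDR 0.00241) and log2 -0.43 (FDR 0.0418) in the order given. TRIB3, a target and inhibitor of ATF4, also fell in each, with log2 fold changes from -0.52 to -1.36. CHAC1, which degrades glutathione, rose in HG against LG, log2 1.11 (FDR 0.00207), and in HGV against LGV, log2 2.13 (FDR 1.13e-06). ASNS, asparagine synthetase, rose in HG against LG, log2 0.39 (FDR 0.0451), and in HGV against LGV, log2 0.97 (FDR 6.18e-05). CTH also rose in both, with log2 0.74 and 1.04. DDIT3 fell in both, with log2 -1.70 (FDR 4.04e-05) and log2 -1.44 (FDR 1.82e-04), as did ATF5, with log2 -0.87 and -1.56. The 3 genes that the rule leaves out were called in HG against LG, with log2 fold changes of -2.71 for the betaine carrier SLC6A12, -0.73 for the taurine carrier SLC6A6 and 0.44 for SLC7A11, the cystine light chain of SLC3A2.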

How the data were processed

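RNA-seq of poly(A) RNA from 12 HepG2 libraries in 4 groups was analysed. The authors trimmed 50 nt single-end reads with the FASTX toolkit, aligned them with STAR to GRCh37 (bcl2fastq 2.17.1.14 and featureCounts are also named in their notes), counted them per Ensembl gene, left out genes averaging under 10 reads and deposited the whole-number read counts without normalization. The library kit is directional, but the strand setting of the counting is not given in the sources used here, so genes overlapping on the other strand may share reads. No batch is named.

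Testing used edgeR 4.0.16 (R 4.3.3) on genes averaging 10 counts or more in the libraries compared (TMM factors, quasi-likelihood F test, Benjamini-Hochberg FDR over all genes tested, called at 0.05 or less). CPM used TMM factors over the 12 libraries. Levels per kilobase used the union of exons of GENCODE on GRCh37 over all annotated transcripts, which can exceed the length of the transcripts in use. Python 3.11.15, scipy 1.17.1 and matplotlib 3.10.9 served for intervals and plots. Library totals of 29798442 to 45572694 reads set the precision of low counts.

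The members, lists, motifs and tests were chosen with earlier results of these data known. In the list of other carriers, 1 gene is not reported here or counted. The value in every library is given for called members among the 6 largest absolute changes of a comparison whose mean reached 1 log2 CPM, for the 2 members with the smallest interaction p, and for SLC3A2, SLC7A5, SLC1A5, SLC38A2 and SLC7A1. Replicate numbers were not taken as pairs, since in no comparison were all 3 same-number correlations of deviations above 0.1. This does not show that pairing is absent. Alternatives were size factors of DESeq2, upper-quartile and library-size scaling, no filter or 1 CPM in 3 libraries, the likelihood ratio test, DESeq2 1.42.0, a replicate block, an FDR of 0.01, 1 fit of all libraries, and leaving out each replicate.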

Additional observations from a re-analysis of the deposited data

How the results depend on the processing

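Of 77 calls of members in the 4 comparisons, 55 held under every alternative run and 22 were lost under at least 1. None reversed. Over 2458 pairs of a member's comparison and an alternative, 108 lost a call and 56 gained one. By comparison, 7 of 18 held in HG against LG, 19 of 21 in HGV against HG, 15 of 20 in LGV against LG and 14 of 18 in HGV against LGV. In HG against LG the count of 18 fell to 10 at an FDR of 0.01, where calls are fewer by construction (12.0% of all genes). Leaving out 1 library at a time gave 10 to 22 calls in HG against LG, where 12.5% to 34.6% of all genes were called. The lowest counts were 10 without LG replicate 1 (12.5% of all genes) and 11 without HG replicate 3 (13.5%). In HGV against HG such fits gave 20 to 23 (37.6% to 48.5% of all genes). In LGV against LG they gave 17 to 25 (31.1% to 43.8%). They gave 16 to 19 in HGV against LGV (27.9% to 44.7%) and 0 to 1 for the interaction (0.00611% to 1.33%). These fits also have fewer samples. The split of calls moved with scaling. In HG against LG it was 3 higher and 15 lower with TMM factors, 4 and 10 with upper-quartile factors and 3 and 9 with library sizes, and in HGV against LGV 4 and 14, 6 and 12, and 6 and 11. With library sizes the median log2 fold change of all genes was 0.106 in HG against LG, 0.146 in HGV against HG, 0.156 in LGV against LG and 0.095 in HGV against LGV, where TMM factors gave 0.01, 0.02, -0.01 and 0.01.

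With the replicate number as a block, 14 members were called in HG against LG (13 of them among the 18). The share of all genes was 21.7%, and 24.7% without the block. In HGV against HG 23 were called (50.8% of all genes, 46.1% without the block). In LGV against LG 20 were called, 19 of them among the 20 (43.7% of all genes, 41.6% without). In HGV against LGV 20 were called (45.1%, 40.7% without), and for the interaction 0 (0.0793%). The same-number correlations ran from -0.201 to 0.295, and in each comparison only 1 or 2 of 3 libraries correlated best with their own number. Same-number means exceeded different-number means in HGV against HG (0.0860 against -0.0464) and HGV against LGV (0.0834 against -0.0417). They also did in LGV against LG (0.0268 against -0.0138), but not in HG against LG (-0.0776 against 0.0397). So few correlations cannot show that pairing is absent, and the numbers were not taken as pairs. Depth limits SLC7A8, SLC3A1, SLC7A3, SLC6A13 and SLC38A8, which rest on few reads.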
